A study of Mus musculus with 6 samples.

Results

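Cadherins were followed here across mouse embryonic fibroblasts with and without an intact Lasp1 gene. The set held 10 genes, listed by symbol as cadherins of mesenchymal and epithelial cells, and every probe annotated to one of them was taken: Cdh1, Cdh2, Cdh3, Cdh4, Cdh5, Cdh6, Cdh10, Cdh11, Cdh13 and Cdh15. All 10 were on the array, with 23 probes of the 45281 measured and 10 of 19057 named genes. The 6 samples were fibroblast cultures of the C57Bl/6NCr strain, 3 Lasp1+/+ (wild type) and 3 Lasp1-/- (Lasp1 knockout), each hybridised as total RNA to an Illumina bead array. The study compared the genotypes in the context of cell migration and tumour formation. How Lasp1 was disrupted, whether cells were primary or passaged, and whether the 3 arrays of a group came from separate embryos or cultures are not stated in the labels, so the p-values below describe variation among these arrays only, part or all of which may be technical.

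Cadherins are membrane proteins that join neighbouring cells through calcium-dependent contacts between their extracellular repeats. In type I and type II classical cadherins the cytoplasmic tail binds p120 catenin and beta-catenin, and alpha-catenin links that complex to actin filaments. Epithelia typically carry E-cadherin (Cdh1) and basal layers also P-cadherin (Cdh3), whereas mesenchymal cells typically carry N-cadherin (Cdh2) and cadherin-11 (Cdh11). A change from E-cadherin to N-cadherin is a classical feature of epithelial-mesenchymal transition, in which transcription factors of the Snail, Zeb and Twist families repress epithelial genes. LASP1 is itself an actin-binding protein of focal adhesions and the cell edge.

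Intensities are in arbitrary units on a linear scale, with a median of 1000 on every array. Upper quartiles ran from 2018 to 2330, with wild type replicate 2 highest. A background limit was set at 1029, the 95th percentile of 1542 probes for olfactory, vomeronasal and taste receptor genes, genes of sensory neurons and taste cells. A gene at or under that limit in both groups is given no fold, and the fold of any gene near it understates the change. Brightness was not compared between probes, because probes differ in how well they bind. The 2 Lasp1 probes that lay clearly above background were lower in every knockout array, at 35.3% and 24.8% of the wild-type mean. Of the 16 fibroblast markers listed, 14 were measured and all 14 lay above the limit.

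P-cadherin (Cdh3) fell to 49.7% of its wild-type intensity in Lasp1 knockout fibroblasts, and no other cadherin of the set passed the test. R-cadherin (Cdh4) and T-cadherin (Cdh13) had knockout arrays that all lay below the wild-type arrays at the brightest probe in the deposited scaling, without passing. After quantile normalization the groups overlapped for both. E-cadherin, VE-cadherin (Cdh5), Cdh10 and M-cadherin (Cdh15) stayed at or near background in both genotypes. The probes of N-cadherin and cadherin-11, the typical cadherins of mesenchyme, were dim and did not differ beyond their spread. Of the 10 genes, limma called 1 lower and 0 higher at an adjusted p under 0.05, and at an unadjusted p under 0.05 the counts were 3 lower and 0 higher. At that unadjusted p, 2472 of all 19057 genes were lower and 1083 higher. Among all 19057 genes tested, 6.29% were called (4.09% lower and 2.20% higher), and among the 11697 genes above the background limit in at least 1 group, 10.3% were called (6.67% lower and 3.58% higher). The share of the cadherins called was therefore close to that of genes in general. Groups did not overlap for 4 of the 10 cadherins, 3 lower and 1 higher, against 21.3% of all genes and 28.8% of those above the limit. The median log2 difference (knockout minus wild type) was -0.14 over the 10 cadherins and -0.02 over all genes.

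**Figure D1:**
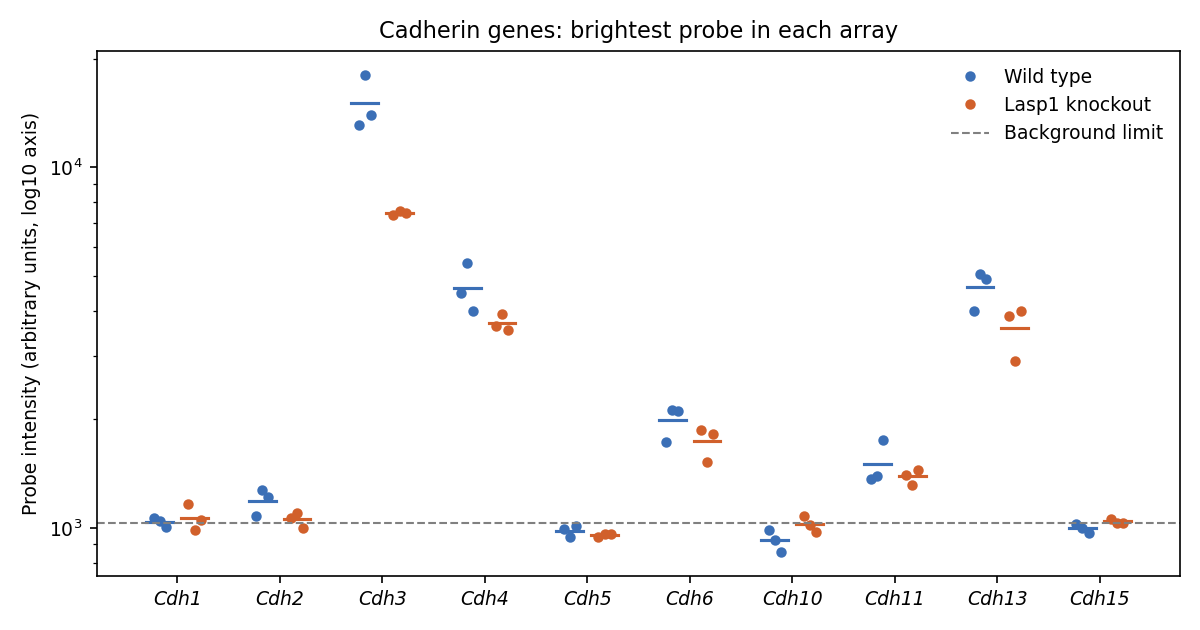
Intensity of the brightest probe of each cadherin gene (log10 axis, arbitrary units) in the 3 wild-type and 3 Lasp1 knockout arrays, with bars at the group means and a dashed line at the background limit of 1029. Cdh3 shows the widest gap between genotypes, Cdh4 and Cdh13 show narrow gaps, and Cdh1, Cdh5, Cdh10 and Cdh15 lie along the limit; heights are not comparable between genes.

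Cdh3 encodes P-cadherin, a type I cadherin of basal epithelium, hair follicle and placenta. At its brightest probe (ILMN_3156246) the wild-type arrays read 13044, 18046 and 13962, and the knockout arrays read 7366, 7540 and 7475. The knockout arrays were tightly grouped and all lay below the lowest wild-type array, while wild type replicate 2 stood above the other two. The wild-type mean was 15017 ± 2663 and the knockout mean 7460 ± 88.0 (SD, n = 3 each). The log2 difference was -0.99 ± 0.11 (SE, 95% interval -1.25 to -0.74; limma adjusted p = 0.00111 over the 19057 genes). Without wild type replicate 2 the log2 difference was -0.86, and it stayed called in all 13 processing alternatives, between -1.09 and -0.79, with adjusted p from 2.48e-05 to 0.0152.

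The other Cdh3 probes went the same way. ILMN_1222853 read 8005, 12522 and 9843 in wild type and 4989, 3756 and 4741 in knockout, a log2 difference of -1.16. ILMN_2444594 read 2792, 3940 and 3603 against 2272, 2084 and 2170 (-0.65), and the dimmest, ILMN_3077284, read 1591, 1793 and 1717 against 1377, 1285 and 1335 (-0.35). In each of the 4 probes every knockout array was below every wild-type array, and wild type replicate 2 was the highest of its group. The limma adjusted p over all probes was 0.00139, 0.00445, 0.0170 and 0.0276 in that order, against 3.90% of all probes called (2.50% lower and 1.40% higher). The log2 differences were smaller at the 2 dimmer probes, and why the probes differed was not tested. After normexp background correction the 4 differences were -1.06, -1.29, -0.85 and -0.62. Subtracting background enlarges differences most at dim probes by construction. With normexp 2 of the 4 probes, the brighter ones, stayed called. Removing any one of wild type replicate 3 and knockout replicates 2 and 3 also left 2 of the 4 called. The probe annotation assigns 2 of these probes to one RefSeq transcript record of Cdh3 and 2 to another, and each record held a brighter and a dimmer probe.

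**Figure D2:**
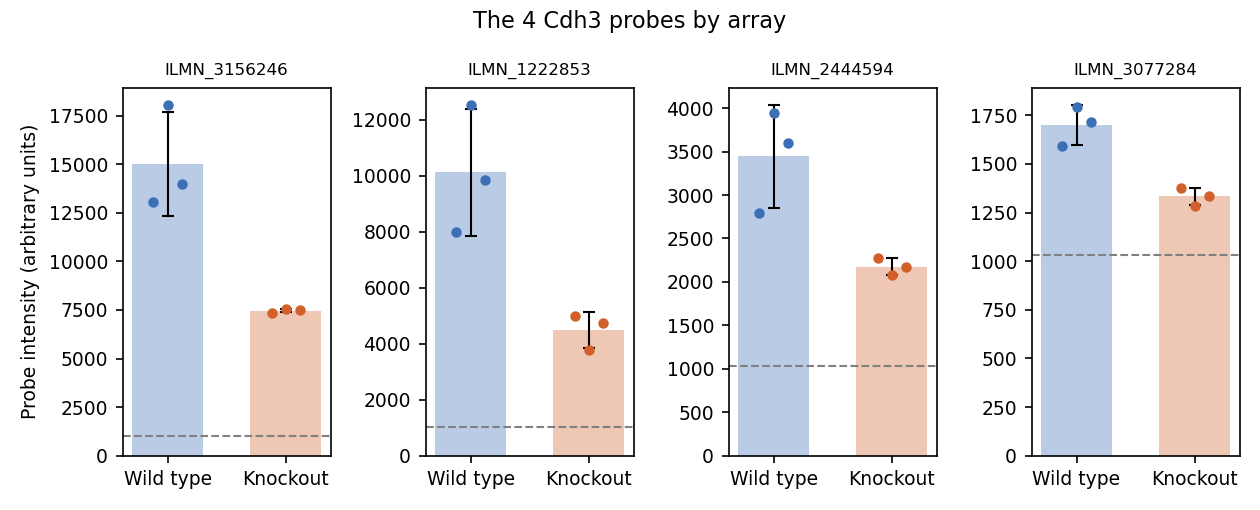
Intensity (arbitrary units, each panel with its own axis from 0) of the 4 Cdh3 probes in wild-type and Lasp1 knockout arrays; bars are means, error bars SD of 3 arrays, points single arrays, and the dashed line the background limit of 1029. All knockout arrays lie below all wild-type arrays in each panel, and the gap narrows from the panels with means of 15017 and 10123 in wild type to the dimmest panel at 1701.

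Among the other type I cadherins, E-cadherin could not be told from background. Its brighter probe read 1062, 1041 and 1006 in wild type and 1163, 983 and 1050 in knockout. Both groups straddled the limit of 1029 and overlapped, and the log2 difference was 0.04 ± 0.08 (SE, 95% interval -0.15 to 0.22, limma adjusted p = 0.896). Its second probe averaged 1012 ± 137 and 952 ± 87.1 (SD, n = 3 each), under the limit in both groups. A difference in E-cadherin was not detectable at these probes.

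N-cadherin, the type I cadherin that many mesenchymal and neural cells use, was measured by a pair of dim probes. The brighter read 1076, 1275 and 1217 in wild type and 1068, 1101 and 1000 in knockout. The groups overlapped narrowly, with knockout replicate 3 lowest and under the limit, and the log2 difference was -0.17 ± 0.09 (SE, 95% interval -0.36 to 0.02, limma adjusted p = 0.349). The other probe averaged 856 and 833, under the limit in both groups. A reading this close to background bounds the probe's signal and does not show how much N-cadherin the cells make.

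R-cadherin (Cdh4), known from retina and brain, was well above background. Its brighter probe read 4468, 5405 and 4002 in wild type and 3624, 3912 and 3536 in knockout. The groups separated by a small margin, between wild type replicate 3 and knockout replicate 2, and the knockout mean was 79.8% of wild type. The log2 difference was -0.32 ± 0.11 (SE, 95% interval -0.56 to -0.07), and it did not pass (limma adjusted p = 0.149, range 0.0827 to 0.410 over the alternatives). Without wild type replicate 2 it was -0.20. The second Cdh4 probe gave nearly the same difference, -0.33, with groups that overlapped (1349, 1710 and 1632 against 1424, 1101 and 1199). In the fit over all probes that second probe was called lower after quantile normalization (-0.34, limma adjusted p = 0.0458) and with array weights (-0.38, 0.0482), and under no other setting. Quantile normalization, which makes the whole intensity distribution equal, brought the brighter probe to 4718, 4781 and 3973 against 3398, 4273 and 3729, and the groups then overlapped.

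M-cadherin (Cdh15), a cadherin of skeletal muscle precursors, read 1027, 997 and 968 in wild type and 1061, 1033 and 1032 in knockout. The 3 knockout arrays were just above the limit and the 3 wild-type arrays just below it, a narrow gap. The log2 difference was 0.06 ± 0.07 (SE, 95% interval -0.09 to 0.22, limma adjusted p = 0.733), and no fold is given. Of the 24 skeletal muscle markers measured, 11 lay above the limit in at least 1 group, 2 rose and 0 fell in the limma test, with 4 higher and 1 lower at an unadjusted p under 0.05. Over all genes above the limit, 3.58% rose and 6.67% fell. Both rises were sarcomeric actins: Acta1 rose by 1.52 ± 0.14 (SE) on the log2 scale and Actc1 by 0.61 ± 0.09 from a wild-type mean under the limit. The myogenic regulators Myod1, Myf5 and Myf6 and the precursor factors Pax3 and Pax7 were under the limit in both groups. The list's summed intensity was 32623 to 33857 in wild type and 42559 to 43124 in knockout. Acta1 alone averaged 4546 in wild type and 12873 in knockout, and the list's median log2 difference was 0.02. The part of these markers in the Cdh15 reading was not tested.

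Type II cadherins share the repeat structure of type I but use a different adhesive interface. Cadherin-11, also called OB-cadherin for its presence in osteoblasts and mesenchyme, was measured by 3 probes. The brightest read 1362, 1390 and 1752 in wild type and 1401, 1318 and 1449 in knockout. Wild type replicate 3 was the only array that stood apart, the groups overlapped, and the log2 difference was -0.10 ± 0.10 (SE, 95% interval -0.34 to 0.13, limma adjusted p = 0.714). Without wild type replicate 3 the sign turned (0.01). The other probes gave -0.17 and, at a probe under the limit in both groups, -0.16. At the brightest probe the interval of -0.34 to 0.13 lay within a 2-fold change of the measured intensity. That intensity was not far above the limit, where the fold understates the change. The interval therefore does not exclude a 2-fold change in Cdh11 RNA.

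Cadherin-6 (Cdh6), a cadherin of kidney and neural crest, read 1733, 2127 and 2106 in wild type and 1873, 1524 and 1815 in knockout at its single probe. The groups overlapped, since knockout replicate 1 lay above wild type replicate 1, and the log2 difference was -0.19 ± 0.11 (SE, 95% interval -0.44 to 0.05, limma adjusted p = 0.416). Cdh10, a neural cadherin, averaged 923 ± 63.6 and 1023 ± 52.7 in wild type and knockout (SD, n = 3 each) at its brightest probe, with 1 of 6 arrays above the limit, and its other 2 probes were under the limit in both groups. VE-cadherin (Cdh5), the endothelial cadherin, read 991, 946 and 1011 against 940, 960 and 961, with 0 of 6 arrays above the limit.

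Endothelial markers were looked at beside Cdh5. Of 25 measured, 16 lay above the limit in at least 1 group, 1 rose and 3 fell. Among all genes above the limit, 3.58% rose and 6.67% fell. Plvap, a diaphragm protein of fenestrated vessels, fell by 1.42 on the log2 scale, the VEGF receptor Flt1 by 1.09 and the TGF-beta co-receptor endoglin (Eng) by 0.52, while the sialomucin Emcn rose by 0.62 (limma adjusted p at most 0.0381 for these 4). The dimmer of the 2 Flt1 probes was near background and not called. Wild type replicate 3 and knockout replicates 2 and 3 each decided the calls of Flt1 and Eng, and the list had 1 fall when any of these 3 arrays was removed and 5 falls when wild type replicate 1 was. Eng also lost its call with knockout replicate 1 removed. The summed intensity of the list was 53875 to 72385 in wild type and 45598 to 51490 in knockout. Flt1 alone averaged 20819 in wild type and 9563 in knockout, and the list's median log2 difference was -0.05. Among the markers that were not above the limit, Tie1, Cldn5, Sox17, Sox18 and Vwf were under it in both groups, as Cdh5 was. These names were picked after the values were seen.

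T-cadherin (Cdh13) has no cytoplasmic tail and is held in the membrane by a lipid anchor, so it does not bind catenins directly. It also serves as a receptor for adiponectin. At its brightest probe the wild-type arrays read 3988, 5057 and 4892 and the knockout arrays 3874, 2892 and 3984. The groups only just separated, between wild type replicate 1 and knockout replicate 3, with knockout replicate 2 lowest. After quantile normalization wild type replicate 1 read 4194 and knockout replicate 3 read 4206, and the groups overlapped. The means were 4645 ± 576 and 3583 ± 601 (SD, n = 3 each), a log2 difference of -0.38 ± 0.14 (SE, 95% interval -0.69 to -0.07) that did not pass (limma adjusted p = 0.161). Array weights were the single alternative of 13 that called it (-0.40, adjusted p = 0.0291, range 0.0291 to 0.433 over the alternatives). Without knockout replicate 2 the log2 difference was -0.23. The 2 dimmer probes gave -0.16 and -0.10 with overlapping groups.

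**Figure D3:**
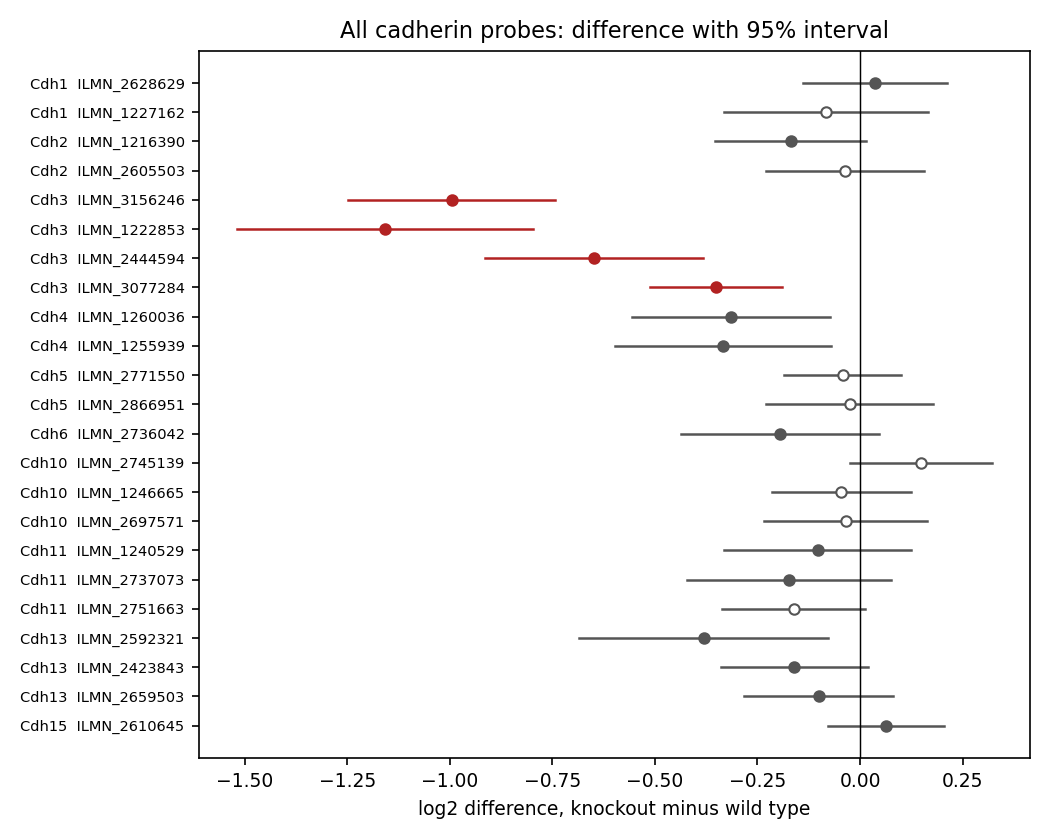
Log2 difference (knockout minus wild type) of all 23 cadherin probes with its 95% interval from the limma fit over all probes; red marks an adjusted p under 0.05 and open points mark probes under the background limit in both groups. The 4 Cdh3 probes are the ones in red, from -1.16 to -0.35, and the intervals of both Cdh4 probes and of the brightest Cdh13 probe also exclude 0 before adjustment.

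Ratios formed within each array set the change of Cdh3 beside that of the 4 other cadherins whose brightest probe was above the limit in all 6 arrays. The log2 ratio of Cdh3 to each was lower in all 3 knockout arrays than in any wild-type array, with mean differences of -0.61 (against Cdh13), -0.68 (Cdh4), -0.80 (Cdh6) and -0.89 (Cdh11). Cdh3 was singled out after its values were seen, and an exact two-sided permutation test of 3 arrays against 3 cannot go below 0.1, so the ratios are a description. They share Cdh3 and are not independent of each other.

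The genes that flank Cdh3 on its chromosome did not move as a block. Of the 5 measured protein-coding genes on each side in the RefSeq gene order (assembly GRCm38.p6), 1 fell and 1 rose and 8 did not pass. All of these lay above the limit, and of all genes above it 6.67% fell and 3.58% rose. Smpd3, a neutral sphingomyelinase, fell by 0.67 on the log2 scale (limma adjusted p = 0.00817), reading 2678, 3579 and 3367 in wild type and 2086, 1872 and 2060 in knockout; removing wild type replicate 3 or knockout replicate 3 ended the call. Sntb2, a syntrophin of the dystrophin complex, rose by 0.92 at its brightest probe (adjusted p = 0.0399), but 0 of its 3 probes was called in the fit over all probes and the call was lost in 5 of the 6 fits that left out an array. The immediate neighbours Zfp90 and Cdh1 differed by -0.04 and 0.04. Of the 10 cadherins, 6 lie on this chromosome, Cdh3 included.

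By a rule of smallest root mean square difference between centred log2 profiles over the 6 arrays, among 10737 genes above the limit in both groups, the genes most like Cdh3 were the Iroquois homeobox gene Irx1 (0.0537), the muscle-type cytochrome oxidase subunit Cox6a2 (0.0766) and Lrrc75a (0.0829). Irx1 read 3107, 4420 and 3610 in wild type and 1880, 1785 and 1935 in knockout. All 3 shared with Cdh3 both the fall and the high reading of wild type replicate 2, which follows from the rule that picked them. The likeness is a description over 6 arrays.

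The main catenins, which join cadherin tails to actin, were above background and did not pass the test. Alpha-catenin (Ctnna1) averaged 141065 ± 2584 and 140656 ± 8458 in wild type and knockout (SD, n = 3 each). The log2 difference was -0.01, with a 95% interval of -0.17 to 0.16. Beta-catenin (Ctnnb1) differed by 0.10 (-0.10 to 0.31) and p120 catenin (Ctnnd1) by 0.18 (-0.06 to 0.41). Plakoglobin (Jup), which can take the place of beta-catenin, read 1119, 1305 and 1079 in wild type and 1489, 1385 and 1419 in knockout. Every knockout array of Jup was above every wild-type array (log2 difference 0.30 ± 0.09 SE), and it did not pass in the deposited scaling (limma adjusted p = 0.0908, range 0.00627 to 0.314, called in 4 of 13 alternatives).

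Of 43 measured catenins and tail partners, 2 rose, 2 fell and 39 did not pass, with 8 higher and 4 lower at an unadjusted p under 0.05. The limit was exceeded in at least 1 group by 37 of the 43, and 10.3% of all genes above the limit were called. The receptor tyrosine phosphatases Ptprk and Ptprm, whose proteins sit at cadherin contacts, went opposite ways. Ptprk read 8519, 8003 and 8838 in wild type and 12956, 13064 and 12785 in knockout, a rise of 0.61 ± 0.07 (SE; limma adjusted p = 0.00111). Ptprm read 8029, 8104 and 8740 against 5900, 4551 and 5569, a log2 difference of -0.64 (adjusted p = 0.00654). Delta-catenin (Ctnnd2) rose by 0.50 from a wild-type mean under the limit, and Ptpru fell by 0.39. For each of these 4 genes 1 probe was called, of 5, 5, 4 and 2 probes, and the mean over a gene's probes called none of them. Rises numbered 5 without wild type replicate 2. Falls numbered 0 without wild type replicate 3, with 2 at an unadjusted p under 0.05, and 1 without wild type replicate 2 or any knockout array. Over the list the median log2 difference was -0.02.

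Of 37 measured desmosomal, giant and other cadherins, 1 rose, 1 fell and 35 did not pass. The limit was exceeded in at least 1 group by 15 of the 37, and 10.3% of all genes above the limit were called. Cdhr1, a cadherin-related protein of photoreceptors, read 1071, 914 and 1056 in wild type and 1958, 1802 and 1920 in knockout (log2 difference 0.90 ± 0.08 SE, limma adjusted p = 0.000367). It rose from a wild-type mean under the limit, in all 13 alternatives. Cdh26 fell by 0.41 (adjusted p = 0.0460), and the call was lost when wild type replicate 2 or 3, or any knockout array, was removed. In those fits 0 genes of the list fell (3 at an unadjusted p under 0.05), except that 1 other gene fell with knockout replicate 1 removed. A second rise appeared without wild type replicate 2. Of 33 protocadherins, 1 fell and 0 rose, with 2 in each direction at an unadjusted p under 0.05. That fall was Pcdh20, at 2247, 2376 and 2321 in wild type and 1488, 1724 and 1455 in knockout (-0.58 ± 0.08 SE, adjusted p = 0.00389). Its second probe was not called, and 1 rise appeared without wild type replicate 2.

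Transcription factors of epithelial-mesenchymal transition were split. Among the 18 on the array, 5 rose and 2 fell, and 11 were not called. In at least 1 group 15 of the 18 lay above the limit, and of all genes above it 3.58% rose and 6.67% fell. Twist1, a basic helix-loop-helix factor of mesenchyme, read 21752, 25508 and 25412 in wild type and 15478, 13071 and 14024 in knockout. Its knockout arrays all lay far below the wild-type arrays (-0.77 ± 0.09 SE, limma adjusted p = 0.00151), and the call held in all 13 alternatives. Its relative Twist2 fell by 0.48 (adjusted p = 0.0116), a call that ended when wild type replicate 3, or knockout replicate 2 or 3, was removed.

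The best known repressors of E-cadherin had no call. Snai1 differed by -0.06 (95% interval -0.26 to 0.14), Snai2 by -0.04 (-0.22 to 0.15), Zeb1 by -0.07 (-0.32 to 0.18) and Zeb2 by -0.01 (-0.47 to 0.45). The forkhead gene Foxc1 rose by 1.17 ± 0.13 (SE), the homeobox gene goosecoid (Gsc) by 1.00 ± 0.10 and the T-box gene Tbx3 by 0.64 ± 0.10. Gsc read 1710, 1763 and 1695 in wild type and 4064, 3108 and 3210 in knockout. Rises numbered 3 with replicate 1 or 3 of either genotype removed. Falls numbered 1 with wild type replicate 3, or knockout replicate 2 or 3, removed. Over the list the median log2 difference was -0.02.

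**Figure D4:**
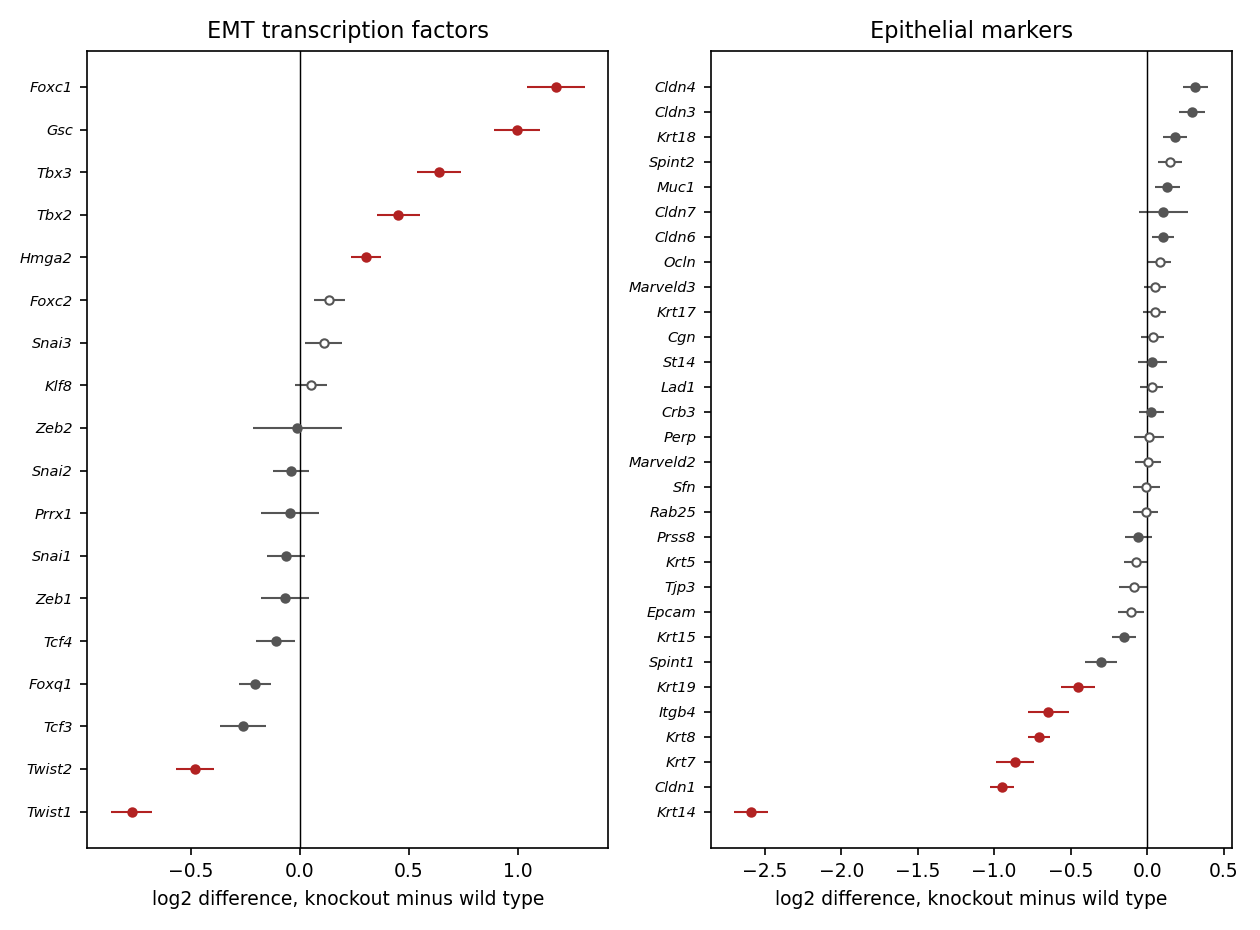
Log2 difference (knockout minus wild type, error bars SE from limma) of the measured transcription factors of epithelial-mesenchymal transition (left) and epithelial markers (right), sorted by size; red marks an adjusted p under 0.05 and open points genes under the background limit in both groups. Snai1, Snai2, Zeb1 and Zeb2 lie within 0.1 of 0, Twist1 and Twist2 are the falls on the left, and Krt14 at -2.59 is the outlying fall on the right.

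Epithelial genes were examined beside Cdh3, since P-cadherin is an epithelial marker as well. Of 30 measured epithelial markers, 17 lay above the limit in at least 1 group, 6 fell, 0 rose and 24 did not pass, with 7 lower and 3 higher at an unadjusted p under 0.05. Of all genes above the limit, 6.67% fell and 3.58% rose. Quantile normalization and trend and robust estimation each gave 2 rises, and the replicate block left 3 falls. The basal keratin Krt14 read 13646, 14486 and 18540 in wild type and 2558, 2540 and 2596 in knockout, a log2 difference of -2.59 (limma adjusted p = 6.08e-06). The tight junction claudin Cldn1 fell by 0.95 and the simple epithelial keratin Krt7 by 0.87, and Krt8, Itgb4 and Krt19 were the other falls. Itgb4 and Krt19 lost their calls when wild type replicate 3, or knockout replicate 2 or 3, was removed, and Krt19 also when wild type replicate 2 was. Epcam, Krt5, Krt17, Ocln, Cgn and Rab25 were under the limit in both groups, as was Cdh1 at its dimmer probe. The list's summed intensity was 53490 to 61438 in wild type and 37142 to 38431 in knockout. Krt14 alone averaged 15557 in wild type and 2565 in knockout, and the list's median log2 difference was 0.01. The part of these cells or genes in the fall of Cdh3 was not tested, and in bulk RNA fewer cells of a type and less RNA per cell cannot be told apart.

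Of 18 measured epithelial transcription regulators, 9 lay above the limit in at least 1 group, 1 rose and 1 fell, with 2 in each direction at an unadjusted p under 0.05. Among all genes above the limit, 10.3% were called. AP-2 alpha (Tfap2a), a factor of epidermis and neural crest, read 4221, 5416 and 5237 in wild type and 2473, 2149 and 2268 in knockout at its brightest probe, a log2 difference of -1.10 (limma adjusted p = 0.00043) that held in all 13 alternatives, with 2 of its 5 probes called. Foxa1 rose by 0.39 from a wild-type mean under the limit and was not called without wild type replicate 3 or any knockout array. A second rise appeared without wild type replicate 2, and a second fall without wild type replicate 1. The grainyhead gene Grhl2 and the splicing regulator Esrp1 were under the limit in both groups.

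Markers of other cell types gave the following counts among those measured, beside 3.58% higher and 6.67% lower among all genes above the limit. The limit was exceeded in at least 1 group by 5 of 15 neural and glial and 8 of 17 cartilage and bone markers. It was exceeded by 8 of 12 blood cell and 14 of 14 fibroblast markers. Neural and glial markers had 1 fall of 15 (Sox10, -0.60), a call lost when replicate 2 or 3 of either genotype was removed, and with normexp, the mean over probes or the replicate block. Cartilage and bone markers had 2 rises of 17 (Col2a1, 3.92, and Ibsp, 0.83). Ibsp rose from a wild-type mean under the limit, and Col2a1 from a wild-type mean of 1207, near it. Blood cell markers had 1 rise of 12 (Lyz2, 0.56), which became 3 rises without wild type replicate 2 and was lost without knockout replicate 3, with normexp and with the replicate block. Fibroblast markers had 6 falls of 14, among them Col1a2 (-0.84), Lum (-0.80) and Postn (-0.77), with a median log2 difference of -0.36. Those falls numbered 2 with wild type replicate 3 removed, 3 with knockout replicate 2 removed and 1 with knockout replicate 3 removed, and 1 with normexp, 3 with the replicate block and 10 with array weights. Their part in the cadherin values was not tested.

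**Figure D5:**
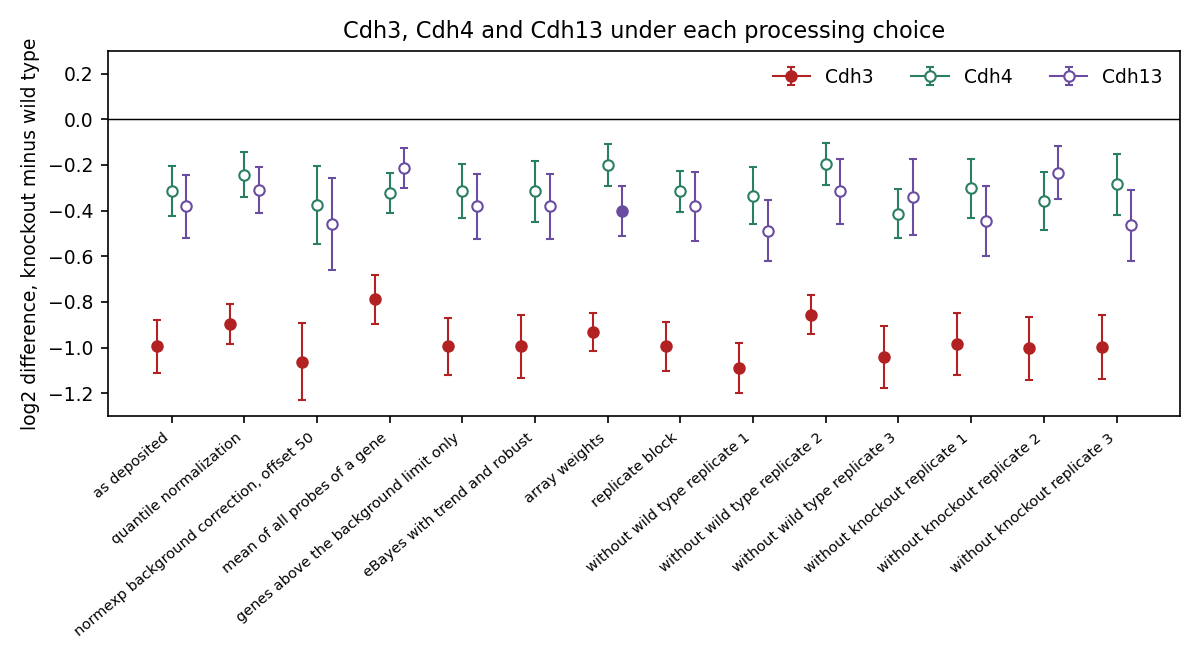
Log2 difference (knockout minus wild type, error bars SE) of Cdh3, Cdh4 and Cdh13 in the deposited scaling and under 13 processing alternatives; filled points have a limma adjusted p under 0.05. Cdh3 is filled throughout, between -1.09 and -0.79, while Cdh4 and Cdh13 stay below 0 and open, except Cdh13 with array weights.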

How the data were processed

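The authors deposited linear probe intensities, each array scaled to a median of 1000 and not background subtracted to 0, as read from the values. Biotin-labelled cRNA was made with an Illumina array kit, per the labels' protocols. Scanner, software and bead summary were not stated in the labels. Arrays give no counts, so their number limits the precision. Probes were named from the supplied platform annotation (34885 with 1 gene symbol, 18 with several, 10378 with none), and a gene was represented by its brightest probe. Log2 intensities of all 19057 genes, and separately of all 45281 probes, were modelled on genotype alone across the 6 arrays with limma (version 3.58.1, R 4.3.3; lmFit, then eBayes; prior degrees of freedom 5.12, residual 4). Two-sided p-values received Benjamini-Hochberg adjustment across every gene or every probe (threshold 0.05). The fits were tested on simulated data drawn independently for each gene and array, which does not cover deviations that genes of an array share.

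The text names all 10 cadherins, Lasp1, a fixed set of catenins and Snail, Twist and Zeb factors, up to 3 rises and 3 falls per gene list among called genes above the limit, and the 3 genes most like a called cadherin. Markers named as under the limit, Krt8, Itgb4 and Krt19, and the genes flanking Cdh3 were chosen after their values were seen. The cadherins and lists were chosen with earlier results of these data known. Replicate numbers are shared by the groups and were not taken as pairs in the main fit. Alternatives were quantile normalization, normexp background correction with an offset of 50, averaging a gene's probes, genes above the background limit only, eBayes with trend and robust estimation, array weights, a block on replicate number, and the removal of 1 array at a time.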

Additional observations from a re-analysis of the deposited data

How the results depend on the processing

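Cdh3 stayed called in all 13 alternatives, and array weights called 2 cadherins lower in place of 1. Quantile normalization and array weights each called 5 cadherin probes in place of 4. Called Cdh3 probes numbered 2 of 4 with normexp, 1 with the replicate block, and 2 to 4 without single arrays. Rises and falls in the lists changed as follows. Quantile normalization gave 3 and 2 other cadherins, 2 protocadherin rises, 7 catenin and partner rises, and 2 and 2 epithelial regulators. Array weights gave 3 and 3, 2 and 2, 7 rises, and 2 and 2 in the same order, and 4 falls of transition factors. Trend and robust estimation gave 2 and 2 other cadherins and 2 falls of epithelial regulators. Normexp gave 0 falls of other cadherins (4 at an unadjusted p under 0.05), 0 of catenins and partners (3) and 1 of transition factors. The mean over probes left 0 rises and 0 falls of catenins and partners (4 and 5 unadjusted) and 3 rises of transition factors. The replicate block gave 0 falls of other cadherins (3 unadjusted), 1 of catenins and partners, 2 rises and 1 fall of transition factors, and 0 rises of epithelial regulators (1 unadjusted). Deviations of same-numbered arrays correlated at -0.41, -0.33 and 0.23 over 10738 genes in the deposited scaling. Wild type replicate 2 with knockout replicate 1 gave 0.46, and wild type replicate 1 with knockout replicate 2 gave 0.39. The first 2 arrays had the highest upper quartile of their groups (2330 and 2283), and the other 2 the lowest (2041 and 2018). Differences in intensity distribution can enter these correlations, so they cannot decide whether replicate numbers pair the arrays. Whether those arrays were handled together was not tested, and no fit blocked on that match. With the block on replicate number 177 genes rose and 234 fell, against 419 and 780.

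Without single arrays the ranges of rises and falls were 1 to 2 and 0 to 1 (other cadherins), 0 to 1 and 1 to 1 (protocadherins), 2 to 5 and 0 to 2 (catenins and partners), 3 to 5 and 1 to 3 (transition factors) and 0 to 2 and 1 to 2 (epithelial regulators). Among the cell type markers, array weights gave 6 endothelial and 7 epithelial falls, normexp 2 and 4, the replicate block 1 and 3, and skeletal muscle rises stayed at 2 or 3 in these. Over all genes, called rises and falls numbered 1015 and 1086 after quantile normalization, a more even split, 223 and 315 with normexp, 993 and 2288 with array weights, and 207 to 734 and 244 to 1217 without single arrays. The causes were not tested. Signal near background limits what the probes of Cdh1, Cdh2, Cdh5, Cdh10 and Cdh15 can show.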
